A study of Mus musculus with 40 samples.

Results

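The 16 left ventricular libraries described here were set apart by how strongly the stressed heart expressed Nppa, the gene for atrial natriuretic peptide. In each of 4 groups of mice with transverse aortic constriction (TAC), a surgical narrowing of the aorta against which the left ventricle must pump, the 5 libraries were ranked by their Nppa value. The 2 highest of each group are called strong (8 libraries) and the 2 lowest weak (8 libraries). The middle library of each group (4 in all) entered neither class, and the 20 sham-operated libraries of the 40 in the study were not ranked by the rule.

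All mice were of strain FVB/NJ, and both sexes (F and M) were sequenced. Mice labelled ONOFF had an inducible, cardiac-specific dominant-negative OGA (OGA strips the sugar O-GlcNAc from proteins), while Con mice were the controls. Both genotypes are described in the labels as having received doxycycline food for 2 weeks and standard chow for the next 2 weeks before surgery, and tissue was taken 9 weeks after TAC or sham surgery. The 4 ranked groups were therefore Con TAC F, Con TAC M, ONOFF TAC F and ONOFF TAC M. Neither the promoter that drives the transgene nor the age of the mice is given in the sources used here, nor are the alleles that Con mice carry. The labels do not state that every library came from its own mouse, so p-values measure only the spread between these libraries.

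Atrial natriuretic peptide is stored and secreted by atrial muscle in the adult, and together with the related B-type peptide (Nppb) it lowers blood pressure and volume through a receptor that makes cyclic GMP. The adult ventricle makes little of it, but ventricular muscle under load returns to expressing it as part of the fetal gene programme, along with Nppb, Myh7 and Acta1. Nppa in the ventricle is therefore widely used as a marker of hypertrophic stress.

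The values are the authors' normalized counts, and Nppa chose the classes, so its values are given as a description with no test. In Con TAC F, Nppa was 80870.1 and 55716 in the strong libraries, 35613 in the middle one, and 27483 and 17637 in the weak ones. In Con TAC M, the strong libraries stood at 101231 and 53914.5, the middle one at 52135 and the weak ones at 34660.3 and 26489.6. In ONOFF TAC F, the strong libraries stood at 188331 and 137293, the middle one at 84399 and the weak ones at 69999 and 50127. In ONOFF TAC M, the strong libraries stood at 236771 and 201801, the middle one at 178490 and the weak ones at 175674 and 119542. The geometric mean of the strong libraries was 3.05-fold that of the weak ones in Con TAC F, 2.44-fold in Con TAC M, 2.71-fold in ONOFF TAC F and 1.51-fold in ONOFF TAC M. The threshold between classes was close in 2 groups: in Con TAC M the middle library lay just under the lower strong one, and in ONOFF TAC M just above the higher weak one. All 20 TAC libraries but 1 (Con TAC F replicate 5) were above 25876, the highest Nppa value of the 20 sham libraries, whose lowest was 4338. Both weak libraries of ONOFF TAC M had more Nppa than every strong library of the Con groups, so strong and weak are meaningful only within a group.

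**Figure D1:**
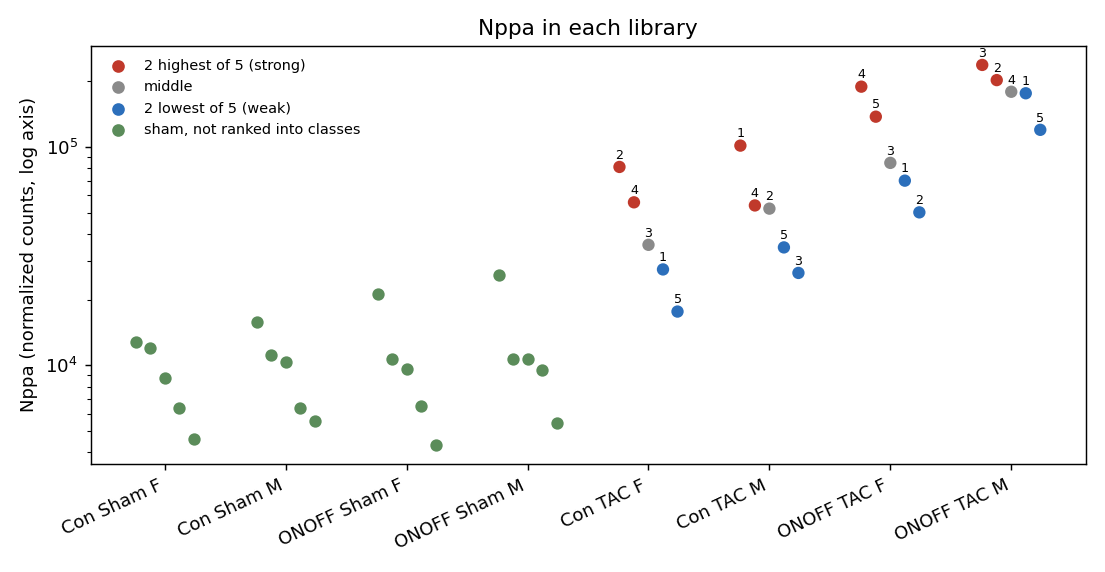
Nppa in each of the 40 libraries (normalized counts, log axis) by group, with the replicate number beside each TAC library. Red points are the 2 highest of 5, blue points the 2 lowest, grey points the middle libraries and green points the sham libraries, which reach 25876 at most.

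Several libraries stood apart before any comparison. Myl7, the atrial myosin light chain, was 7010 in ONOFF TAC F replicate 1, 841 in ONOFF TAC F replicate 2 and 525 in ONOFF TAC M replicate 5, all 3 of them weak, and 3975 in the middle library Con TAC F replicate 3. In the 8 strong libraries it was 1.66 to 15.1, and 12 sham libraries exceeded 100. Con TAC F replicate 2, a strong library labelled female, had an Xist value of 51.7, against 2002 to 2459 in the other strong and weak libraries of its group, although its Y-linked genes summed to less than the 24.8 of ONOFF TAC F replicate 4, against 4220.2 or more in the male strong and weak libraries. The middle library Con TAC F replicate 3 had an Xist value of 6.72. Mitochondrially encoded transcripts made up 8.28% of the values in the strong library Con TAC M replicate 1, against 13.4% to 19.4% in the other 15 libraries. Averaged over the classes this share was 15.9% in strong and 17.2% in weak libraries, a difference that did not pass an exact two-sided permutation test within groups (p = 0.401). Neither did the total of the values (p = 0.711), the number of genes listed at 0 (p = 0.549) or the haemoglobin share (p = 0.205, all exact permutation tests over 1296 assignments). The deposited totals were 35176200 to 47654000 in these 16 libraries. The sequencing depth before normalization is unknown.

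**Figure D2:**
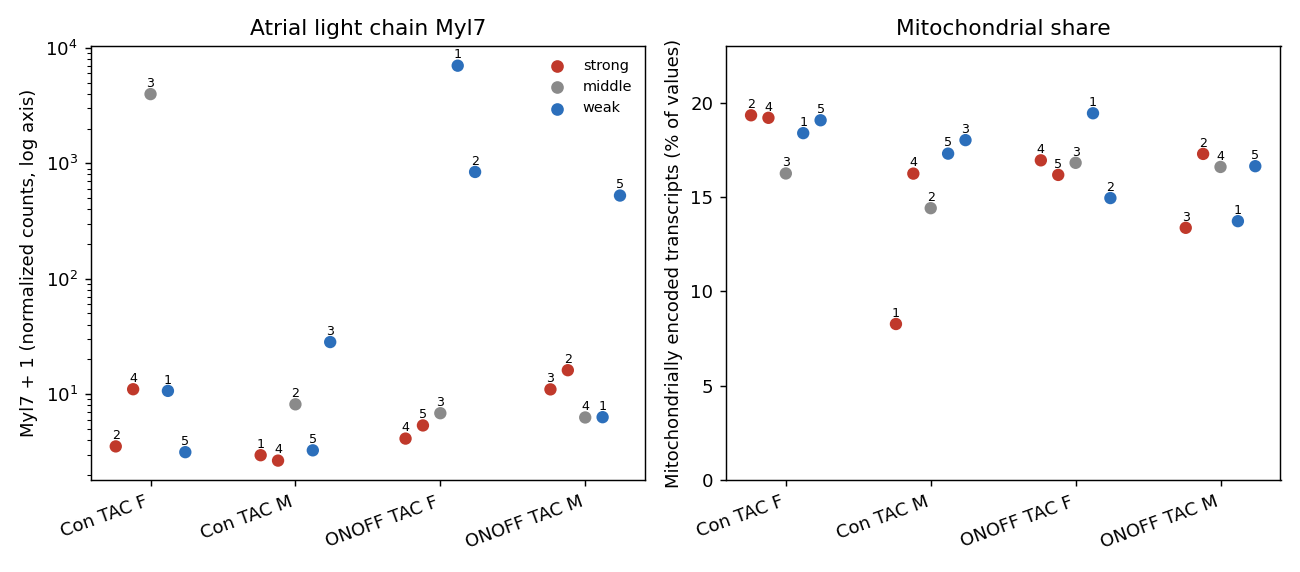
Myl7 (normalized counts + 1, log axis) and the share of mitochondrially encoded transcripts (% of values) in the 20 TAC libraries by group, coloured by class and numbered by replicate. All 4 libraries with Myl7 above 100 are weak or middle ones, and the lowest mitochondrial share, 8.28%, is in a strong library.

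The comparison of strong with weak libraries asked what varies with the stress marker among hearts of the same genotype, sex and operation. The libraries were sorted by a measured gene, so a difference is an association with Nppa, not the effect of a treatment. Nppa itself was not tested, and no gene passed the threshold. Of 16394 genes tested with limma, with group as a covariate, none had a Benjamini-Hochberg adjusted p under 0.05 (0% called in either direction, smallest adjusted p 0.0990). At an unadjusted p under 0.05 there were 743 genes higher in strong libraries, 4.53% of those tested, and 812 lower, 4.95%. Altogether these were 1555 genes or 9.49%. A difference of the same sign in all 4 groups was found for 14.6% of genes. The genes named below therefore lead a ranking and are not called; unadjusted p-values are used only to count and order them.

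Egr2, a zinc-finger transcription factor of the immediate early class, had the largest difference among the leading genes that were higher in strong libraries. In Con TAC F it was 636 and 129 in the strong libraries and 61.5 and 142 in the weak ones, and in Con TAC M 311 and 261 against 129 and 55.5. In ONOFF TAC F it was 850.4 and 1061 against 242 and 227, and in ONOFF TAC M 992 and 378 against 172 and 76.2. Both strong libraries lay above both weak ones in 3 groups, and in Con TAC F they overlapped, with strong replicate 4 lower than weak replicate 5. The log2 difference was 1.94 (SE 0.33, limma adjusted p = 0.0990, n = 8 and 8). Without Con TAC F replicate 4 the log2 difference was 2.18 and passed (limma adjusted p = 0.0134), and over all alternatives its adjusted p ranged from 0.0134 to 0.992. The median of Egr2 was 55.9 in Con sham and 62.1 in ONOFF sham hearts, with highest values of 159 and 180.

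A further 3 transcriptional regulators were among the 9 leading genes reported on the higher side. Snai1, a repressor known from epithelial-to-mesenchymal transition, was 226 to 396 in strong libraries (median 294) and 165 to 257 in weak ones (median 197). The ranges overlapped across groups, but within each of the 4 groups both strong libraries exceeded both weak ones, and the log2 difference was 0.59 (SE 0.12, limma adjusted p = 0.248). Foxs1, a forkhead factor, was 396 to 784 (median 425) in strong and 199.7 to 410 (median 309) in weak libraries, a log2 difference of 0.66. Hlx, a homeobox factor, was 559 to 984 (median 782) against 367 to 686 (median 478), a log2 difference of 0.60. For both, the classes were apart in 3 of 4 groups.

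The rest of the leading genes on the higher side had varied roles. Gdf15, a secreted stress cytokine, was 650.5 to 2842 in strong libraries (median 1568) and 336 to 2213 in weak ones (median 653), a log2 difference of 1.01 (SE 0.24, limma adjusted p = 0.368). Its within-group differences were 1.22, 1.61, 0.94 and 0.29 in Con TAC F, Con TAC M, ONOFF TAC F and ONOFF TAC M. Egr3, a relative of Egr2, had a log2 difference of 1.15. Dact3, an inhibitor of Wnt signalling, was higher by 0.35, with both strong libraries above both weak ones in all 4 groups. The same held for Nup160, a nuclear pore scaffold protein, at 0.58. Telo2, which helps to stabilise the large kinases of the PIKK family, was higher by 0.63. The limma adjusted p was 0.368 for Egr3, Dact3, Nup160 and Telo2 alike.

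On the lower side the leading genes included membrane channels and a junction protein of heart muscle. Klhl33, a member of the kelch-like family, had the smallest p of all genes. It was 596 and 522 in the strong and 1087 and 1276 in the weak libraries of Con TAC F, and 577 and 626 against 803 and 773 in Con TAC M. In ONOFF TAC F it was 604 and 479 against 816 and 715, and in ONOFF TAC M 365 and 281 against 599 and 484. Every strong library was below both weak libraries of its group, and the log2 difference was -0.68 (SE 0.11, limma adjusted p = 0.0990). The median was 1126 in Con sham and 1330 in ONOFF sham hearts, and the weak value of 1276 was the only one above the first of these. Over all alternatives its adjusted p ranged from 0.0268 to 0.992.

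Dsg2, a desmosomal cadherin that holds neighbouring heart muscle cells together, was 514 to 895.5 in strong libraries (median 736.5) and 699 to 1779 in weak ones (median 1245). The classes were apart in 3 groups and overlapped in ONOFF TAC M. The log2 difference was -0.71 (SE 0.12, limma adjusted p = 0.0990). When Nppa was taken as a continuous measure over all 20 TAC libraries, Dsg2 was 1 of 2 genes that passed (0.0122% called, with 15.9% at an unadjusted p under 0.05), at -0.52 per log2 unit of Nppa (limma adjusted p = 0.0399). Kcnv2, a modifying subunit of voltage-gated potassium channels, was 107 to 319 (median 199.6) against 175 to 548 (median 342), with a log2 difference of -0.67 (SE 0.13, limma adjusted p = 0.165). Both strong libraries were below both weak ones in all 4 groups. Cacna2d2, an accessory subunit of voltage-gated calcium channels, was 27.3 to 108 (median 58.2) against 89.6 to 272 (median 163), with a log2 difference of -1.38 (SE 0.27, limma adjusted p = 0.165). Medians in Con and ONOFF sham hearts were 1825 and 1611 for Dsg2 and 769 and 569 for Kcnv2, so for both genes the median of the weak class lay between that of the strong class and those of sham. For Cacna2d2 the sham medians were 138 in Con and 201 in ONOFF, below and above the weak median.

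Cobll1, an actin-binding protein related to cordon-bleu, was 1201 to 1956 in strong and 1856 to 2540 in weak libraries, with a log2 difference of -0.58 (SE 0.10, limma adjusted p = 0.0990). Phkg1, a catalytic subunit of phosphorylase kinase, which switches on glycogen breakdown, had a log2 difference of -0.99. Ptges, which makes prostaglandin E2, had one of -0.93 and the chemokine gene Ccl9 one of -1.05. Dglucy, a mitochondrial D-glutamate cyclase, stood at -0.54 and Magi2, a membrane scaffold, at -0.85. Strong libraries were below the weak ones in all 4 groups for Cobll1, Ptges and Ccl9, and in 3 groups for Phkg1, Dglucy and Magi2. Their limma adjusted p-values were 0.229 for Phkg1, 0.246 for Ptges, 0.256 for Dglucy, 0.312 for Ccl9 and 0.368 for Magi2. Of the 19 leading genes reported, 8 had the classes apart in all 4 groups and 11 in 3 groups. Over all genes, both strong libraries were above both weak ones in all 4 groups for 28 genes (0.171%) and below them for 30 (0.183%). The leading genes were chosen partly by these values, so nothing is read from their counts.

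**Figure D3:**
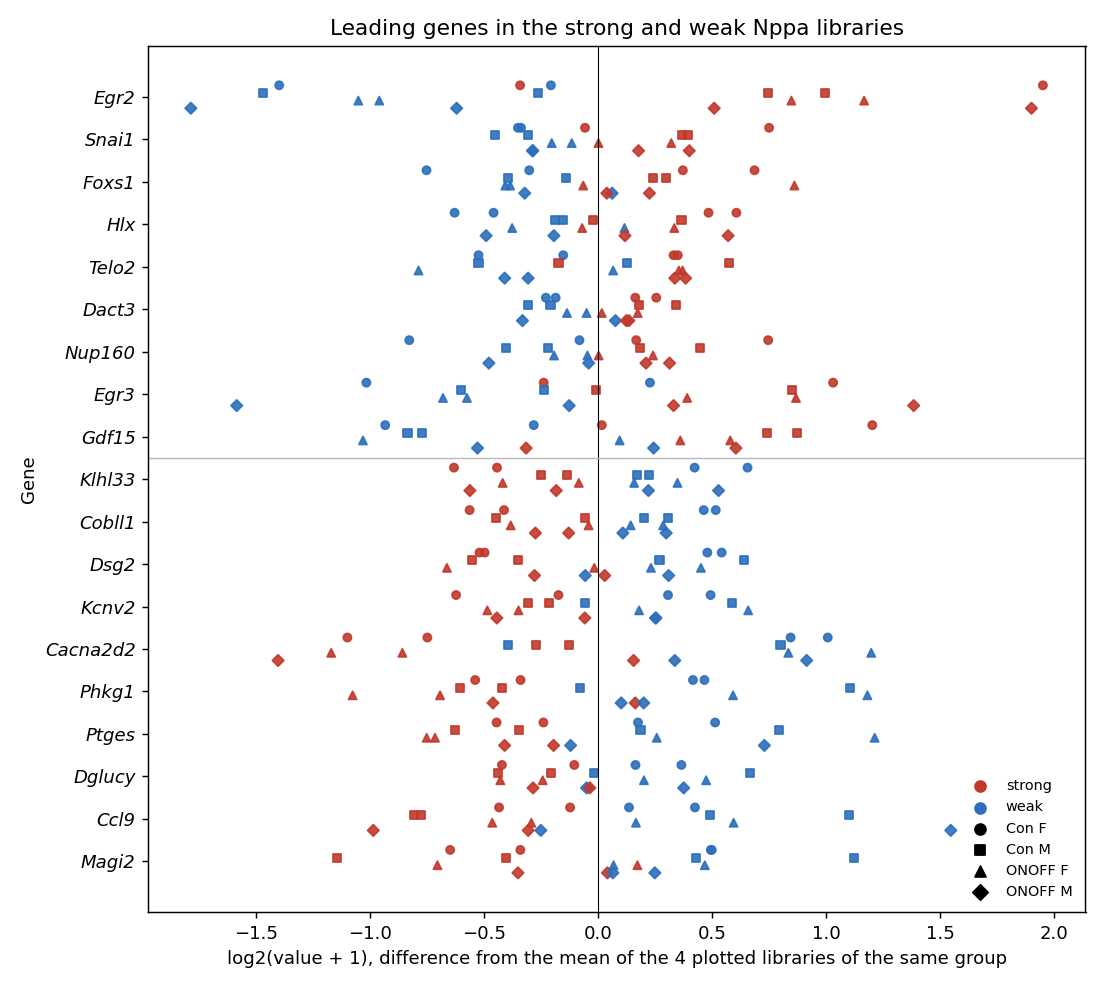
The 19 leading genes reported, in the 16 libraries, as log2(value + 1) minus the mean of the 4 plotted libraries of the same group. Red points are strong and blue points weak libraries, with a shape for each group; the line parts the 9 genes with a positive difference from the 10 with a negative one. None of the 19 passed an adjusted p of 0.05.

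Of the 20 fetal and hypertrophy genes tested, 8 were higher in strong libraries at an unadjusted p under 0.05 and 0 were lower, against 4.53% and 4.95% of all genes. The list's median log2 difference was 0.35, against 0.0030 over all genes. Besides Gdf15 these were Tbx15, Myh7, Nppb, Ankrd1, Rcan1, Xirp2 and Uchl1. The lowest limma adjusted p in the list was 0.368. The count was 7 to 9 when any single library was left out, 7 without the libraries with Myl7 above 100, and 3 in ONOFF TAC or in male TAC libraries alone, fits with 8 libraries each. Over all genes 310 were higher in ONOFF TAC alone and 280 in male TAC alone, in place of 743.

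Nppb, the gene for B-type natriuretic peptide, was 21999 to 49955 in strong libraries (median 35486) and 18637 to 38693 in weak ones (median 24128). The log2 difference was 0.38 (SE 0.13, limma adjusted p = 0.422), positive in all 4 groups but with the classes apart in only 2 of them. All TAC values of both classes were above the highest sham value of 16625. Myh7, the slow myosin heavy chain, was 128480 to 235670 (median 154140) against 57651 to 156220 (median 110190), a log2 difference of 0.55 (SE 0.16, limma adjusted p = 0.396). Its differences were 1.17, 0.47 and 0.76 in Con TAC F, Con TAC M and ONOFF TAC F, but -0.19 in ONOFF TAC M, where both strong libraries were below both weak ones. Acta1, the skeletal actin of the fetal programme, overlapped widely, at 74115 to 307920 against 58851 to 269870, with a log2 difference of 0.32 (SE 0.23, limma adjusted p = 0.639). Myh6, the fast adult heavy chain, had a log2 difference of 0.18 (SE 0.16, limma adjusted p = 0.710).

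Among the other members, Ankrd1, a stretch-responsive protein of the sarcomere, was 177840 to 305160 against 156600 to 326190, a log2 difference of 0.26 (SE 0.10). Rcan1, a calcineurin inhibitor that calcineurin itself induces, had a difference of 0.53 (SE 0.18). Xirp2, an actin-binding protein of the intercalated disc, stood at 0.38 (SE 0.13) and Uchl1, a deubiquitinating enzyme, at 0.38 (SE 0.16). Tbx15, a T-box factor, had 0.65 (SE 0.17). The limma adjusted p-values of these 5 genes lay between 0.368 and 0.488. The nicotinamide riboside kinase Nmrk2, listed with the energy transfer genes, was 1016 to 3766 (median 2021) against 680 to 2351 (median 1108), a log2 difference of 0.92 (SE 0.23, limma adjusted p = 0.368).

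Immediate early genes, which are transcribed within minutes of a stimulus without new protein synthesis, had the largest share of members past the unadjusted threshold of all lists: 8 of 18 were higher and 0 lower. Over all genes these shares were 4.53% and 4.95%. Besides Egr2 and Egr3 the higher members were Ier2, Junb, Fos, Egr1, Fosb and Jun. The list's median log2 difference was 0.33. Egr1 was 772 to 6886 in strong libraries (median 3585) and 475 to 2566 in weak ones (median 1039), a log2 difference of 1.44 (SE 0.44, limma adjusted p = 0.422). Fos was 163 to 1093 (median 534) against 103 to 539 (median 208), a difference of 1.29 (SE 0.37, limma adjusted p = 0.396). Both had wide ranges that overlapped between the classes, and the classes were apart in only 2 of the 4 groups. Junb was 1221 to 3931 (median 2154) against 748 to 1915 (median 1239), with the classes apart in all 4 groups and a difference of 0.80 (SE 0.20, limma adjusted p = 0.368). Ier2 had a difference of 0.74, Fosb 1.12 and Jun 0.34. The count was 7 to 11 when any single library was left out, 5 in Con TAC alone and 9 in ONOFF TAC alone. Over all genes 1176 were higher in Con TAC alone and 310 in ONOFF TAC alone, in place of 743.

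Matrix genes were more often higher than lower in strong libraries, but their counts depended on single libraries. Of 22 collagen genes, 20 had a difference above 0 (50.7% of all genes did) and 3 were higher at an unadjusted p under 0.05. Of 46 other matrix and cross-linking genes, 39 had a difference above 0, with 9 higher and 3 lower at that threshold. Over all genes 4.53% were higher and 4.95% lower. Sparc, a collagen-binding matricellular protein, was 17711 to 34066 (median 30851) against 14720 to 31033 (median 22229), a log2 difference of 0.38 (SE 0.12, limma adjusted p = 0.422). Ccn1, a matricellular protein that binds integrins, had 0.45, Col16a1 0.44, Col15a1 0.43 and Col6a3 0.37. Ogn, a small leucine-rich proteoglycan, was lower at -0.23. Postn, made by activated fibroblasts, was 2740 to 20770 against 2220 to 13517, with differences of 1.04 in Con TAC M and 1.47 in ONOFF TAC F but 0.14 in Con TAC F and -0.20 in ONOFF TAC M. Averaged over the groups it stood at 0.61 (SE 0.25, limma adjusted p = 0.473). Col1a1, the main chain of type I collagen, had 0.35 (SE 0.23, limma adjusted p = 0.624) and Cilp, a matrix protein of scarred myocardium, 0.64 (SE 0.42, limma adjusted p = 0.622). For Col1a1 the difference was 1.15 in Con TAC M but 0.036, 0.17 and 0.035 in Con TAC F, ONOFF TAC F and ONOFF TAC M. For Cilp it was 1.51 in Con TAC M and 1.86 in ONOFF TAC F but -0.36 in Con TAC F and -0.45 in ONOFF TAC M.

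For the collagen genes the count of 3 became 17 without Con TAC F replicate 4, 6 without ONOFF TAC M replicate 1, and 5 without ONOFF TAC F replicate 2 or Con TAC F replicate 5. For the other matrix genes the count of 9 became 3 without ONOFF TAC F replicate 1 or 5 or Con TAC M replicate 1 or 3, 4 without Con TAC F replicate 2 or ONOFF TAC M replicate 3, and 5 without Con TAC F replicate 1. It became 14 without ONOFF TAC M replicate 2 and 16 without Con TAC F replicate 4 or ONOFF TAC M replicate 5. The count of 3 lower members became 1 without ONOFF TAC F replicate 2 or 5, Con TAC F replicate 4 or ONOFF TAC M replicate 5. With the slope over all 20 TAC libraries the counts of higher members were 6 for collagen and 16 for other matrix genes. They were 1 collagen gene in female TAC alone and 7 in male TAC alone, and 4 other matrix genes in ONOFF TAC alone and 5 in male TAC alone. Over all genes 1261 were higher with the slope, in place of 743. In female, male and ONOFF TAC alone 751, 280 and 310 genes were higher. The sum of the 18 cardiac fibroblast markers overlapped, at 93786 to 135416 in strong and 93017 to 136392 in weak libraries, with 2 markers higher and 2 lower at the unadjusted threshold.

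The 3 lists of muscle excitation genes lay mostly on the lower side, with a difference below 0 for 15 of 18 potassium channel genes, 13 of 19 adrenergic and cyclic nucleotide genes and 14 of 18 calcium handling genes. Over all genes the share below 0 was 49.3%. At an unadjusted p under 0.05, 4.95% of all genes were lower and 4.53% higher, the shares to set beside each count from all 16 libraries. Of the potassium channel genes, 4 were lower at an unadjusted p under 0.05 and 0 higher, with Kcnv2 first. Kcnj5, a subunit of the acetylcholine-gated channel, had a log2 difference of -0.47 and its partner Kcnj3 one of -0.54. Of the adrenergic and cyclic nucleotide genes, 6 were lower and 0 higher. Among these Grk3, a kinase that desensitises receptors, was 282 to 596 (median 420.5) against 478 to 779 (median 553), a difference of -0.43 (SE 0.13, limma adjusted p = 0.396). The alpha-1B adrenergic receptor gene Adra1b stood at -0.46 and Pde4d, which breaks down cyclic AMP, at -0.52. Of the calcium handling genes, 3 were lower and 0 higher: Cacnb2, a calcium channel subunit, at -0.34, the calcium-dependent kinase gene Camk2b at -0.31 and Atp2a2, the calcium pump of the sarcoplasmic reticulum, at -0.27. The potassium channel count was 8 without ONOFF TAC M replicate 5, the adrenergic count 3 without Con TAC F replicate 1 or ONOFF TAC F replicate 2, and the calcium handling count 5 without ONOFF TAC F replicate 1 or 4. In ONOFF TAC alone these counts were 2, 2 and 0, and in male TAC alone 1, 2 and 1. Fewer genes were lower there over all genes as well, 437 in ONOFF TAC alone and 270 in male TAC alone, in place of 812. For the highest against the lowest library of each group the adrenergic count was 1 and the calcium handling count 0. The junction and costamere genes did not lean that way: 10 of 17 had a difference above 0, with a median of 0.026. At the unadjusted threshold 3 of them were lower and 0 higher, namely Dsg2, the desmosomal cadherin Dsc2 at -0.42 and vinculin (Vcl) at -0.23.

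The lists of fuel handling did not move one way. Of 38 fatty acid oxidation genes, 6 were lower at an unadjusted p under 0.05 and 0 higher, against 4.95% and 4.53% of all genes. A difference below 0 was found for 32 of them (49.3% of all genes). Acsl1, which activates fatty acids for oxidation, was 13623 to 28066 in strong libraries (median 19582) and 20154 to 32368 in weak ones (median 26440). Both strong libraries were below both weak ones in all 4 groups, and the log2 difference was -0.39 (SE 0.11, limma adjusted p = 0.393). Ppargc1a, a coactivator that drives mitochondrial biogenesis, had -0.49, the lipase gene Lpl -0.24 and Hadha, a subunit of the trifunctional protein of beta-oxidation, -0.20. The fatty acid receptor gene Ppara had -0.83 (SE 0.38, limma adjusted p = 0.515). Its difference was -2.52 in Con TAC F, -0.31 in Con TAC M and -0.93 in ONOFF TAC F, but 0.45 in ONOFF TAC M. Of 22 genes of branched-chain amino acid and ketone breakdown, 4 were lower and 0 higher, among them Aldh6a1 at -0.33, Dbt at -0.41 and Acadsb at -0.26. By contrast 38 of 42 nuclear genes of oxidative phosphorylation had a difference above 0, with a median of 0.12 and 0 past the unadjusted threshold in either direction. When single libraries were left out 0 to 4 of them were higher, with 4 without ONOFF TAC F replicate 1 and 2 without ONOFF TAC M replicate 5. Of 15 mitochondrially encoded transcripts, 14 were below 0 with a median of -0.13, also with 0 past the threshold and 0 to 2 lower when single libraries were left out, the 2 without Con TAC M replicate 4. Of 25 glycolysis and glycogen genes, 18 were above 0 with a median of 0.074. At the unadjusted threshold 2 of these were higher, among them the glycolytic enzyme gene Gapdh at 0.35, and 2 lower, with Phkg1 first. Of 23 TCA cycle genes, 15 were below 0 and 1 was lower, Suclg2. Without the libraries with Myl7 above 100, 7 TCA cycle genes were lower. That fit has no weak library of ONOFF TAC F, and over all genes 1254 were lower in it, in place of 812. The fatty acid count of 6 became 3 without Con TAC F replicate 2 or 5 or Con TAC M replicate 1, and 13 without ONOFF TAC M replicate 1, and it was 0 in ONOFF TAC alone. It was 12 with quantile normalization and 11 with the slope over all 20 TAC libraries. The count for branched-chain and ketone breakdown was 0 in ONOFF TAC or in male TAC alone. Over all genes 437 were lower in ONOFF TAC alone and 270 in male TAC alone, in place of 812. With the slope 1340 genes were lower, and with quantile normalization 773.

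Of 17 circadian clock genes, 4 were lower in strong libraries at an unadjusted p under 0.05 and 0 higher, against 4.95% and 4.53% of all genes. Hlf, a clock-controlled factor of the PAR bZIP family, was 272 to 683 (median 360) against 389 to 1455 (median 686), a log2 difference of -0.75 (SE 0.20, limma adjusted p = 0.368). Its relative Tef had -0.32 and Nr1d2, a nuclear receptor that represses clock genes, -0.43. The count of 4 became 2 without Con TAC F replicate 1 or 4, ONOFF TAC F replicate 1 or 5, or ONOFF TAC M replicate 2, and 1 without Con TAC F replicate 5. It was 0 in ONOFF TAC alone and 1 in male TAC alone, where 437 and 270 genes were lower over all genes, in place of 812.

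Atrial markers mostly stood lower in strong libraries, although Nppa itself is an atrial product. Of 11 atrial markers, 10 had a difference below 0 and 3 were lower at an unadjusted p under 0.05, against 49.3% and 4.95% of all genes. The summed value of the list was 3236 to 3918 in strong and 3277 to 34704 in weak libraries, and no atrial marker named here was at 0 in either class. Myl7 had a log2 difference of -3.20 (SE 1.26, limma adjusted p = 0.459), Myl4, another atrial light chain, -2.01 and Sln, a regulator of the calcium pump in atria, -1.95, with the highest values in the 3 weak ONOFF libraries named above. Without those libraries Myl7 stood at -0.36, while Myl4 and Sln turned to 0.15 and 0.27. Tbx5, a factor that the ventricle expresses too, was 355 to 656 (median 502) against 523 to 1120 (median 706), a difference of -0.55 (SE 0.14, limma adjusted p = 0.368). Of 8 conduction system markers 3 were lower, among them the pacemaker channel gene Hcn4 at -0.69 and Shox2 at -0.92. Shox2 was low, with means of 20.8 in strong and 48.5 in weak libraries. Its difference was -0.053 in Con TAC F and -0.084 in Con TAC M, but -2.46 in ONOFF TAC F and -1.08 in ONOFF TAC M. In a bulk sample fewer cells of a type and less RNA per cell cannot be told apart. The atrial count became 6 without ONOFF TAC M replicate 1 and 5 without Con TAC F replicate 5, and the conduction count became 1 without ONOFF TAC F replicate 4 or without the libraries with Myl7 above 100. In male TAC alone both counts were 0, where 270 genes were lower over all genes, in place of 812.

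The 19 leading genes were chosen from these libraries by p and by the same sign in all 4 groups, so their signs could hardly turn. They kept their sign when the 3 weak libraries with Myl7 above 100 were left out, an alternative chosen after the values were seen. These 3 include both weak libraries of ONOFF TAC F, so that group then gave no difference between the classes. The weak class of ONOFF TAC M kept only replicate 1, so the fit rests mainly on the Con groups. Egr2 was then at 1.71, Klhl33 at -0.78, Dsg2 at -0.74 and Kcnv2 at -0.62, each with a limma adjusted p of 0.257. Again 0 of 16394 genes passed, with 1120 higher and 1254 lower at an unadjusted p under 0.05. In several lists more members were then higher at that threshold, as was so over all genes, where 743 were higher with all libraries. Whether the loss of a whole group or the Myl7 level goes with these changes was not tested. Macrophage and monocyte markers had 8 in place of 0, endothelial markers 8 and tubulin and cytoskeletal genes 7 in place of 2 each. Cardiac fibroblast markers and smooth muscle and pericyte markers had 6 each in place of 2, with 1 lower in each. Erythroid markers had 4 in place of 0 and interferon-induced genes 4 in place of 1. In other lists fewer members were higher, as in other matrix genes, with 4 in place of 9. With all libraries the endothelial sum overlapped, at 65251 to 99075 in strong and 65159 to 76679 in weak libraries, with Cldn5, a tight junction protein, at a log2 difference of 0.45. The sum of 18 macrophage and monocyte markers overlapped as well, at 11111 to 18192 against 10060 to 21371. In that list 14 of 18 markers had a difference above 0 (50.7% of all genes did), with a median of 0.079. With all libraries 0 of them were higher and 1 lower at the unadjusted threshold. The lower one was Lyve1, a hyaluronan receptor of resident macrophages and lymphatic vessels, at -0.61 (SE 0.22, limma adjusted p = 0.436). The 7 ventricular cardiomyocyte markers were all present and summed to 1591810 to 3696720 against 1342900 to 2532050.

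**Figure D4:**
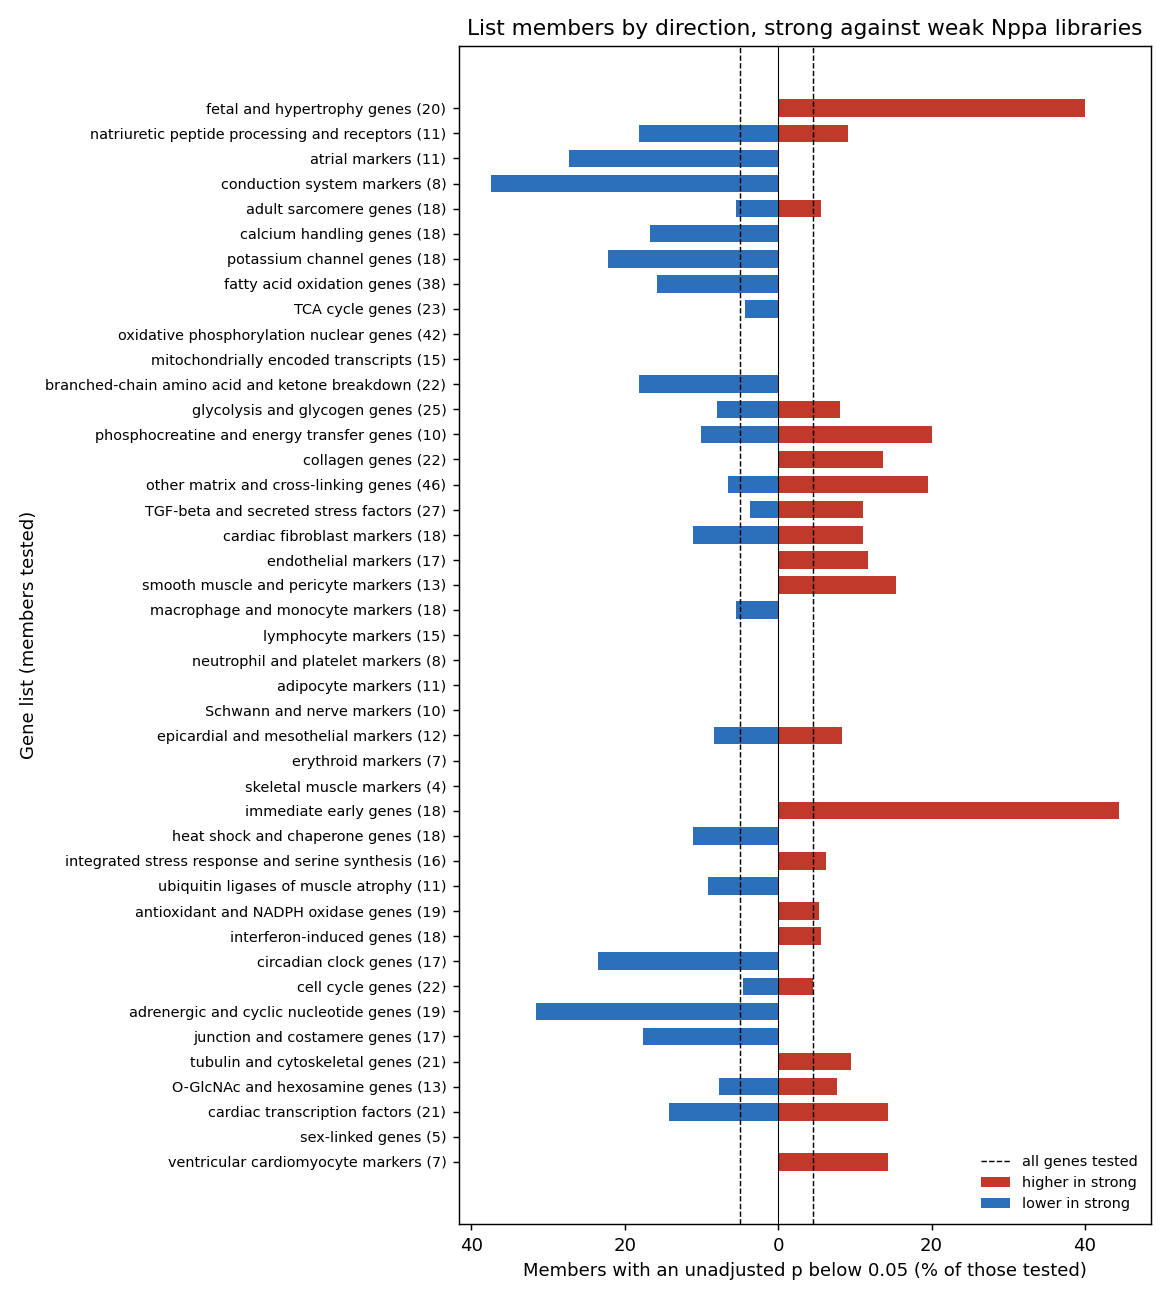
Share of tested members of each of the gene lists (number tested in brackets) with an unadjusted p under 0.05, to the right for members higher in strong and to the left for members lower in strong libraries. Dashed lines mark the shares over all genes, 4.53% higher and 4.95% lower; fetal and immediate early genes reach 8 of 20 and 8 of 18 on the right.

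O-GlcNAc genes were looked at because the ONOFF transgene acts on that modification. Of 13 genes, Nagk, which salvages N-acetylglucosamine, was 818 to 1050.5 against 641 to 895, with the classes apart in all 4 groups and a log2 difference of 0.30 (SE 0.09, limma adjusted p = 0.394). Ogt, which adds O-GlcNAc, stood at -0.24 (SE 0.10, limma adjusted p = 0.459) and Oga, which takes it off, at -0.18 (SE 0.11, limma adjusted p = 0.604). The difference between the classes could itself differ between the genotypes or the sexes. By genotype 0 of 16394 genes passed in limma (0% called), with 1729 or 10.5% at an unadjusted p under 0.05. That count of 0 became 40 without Con TAC M replicate 5 and 1 without Con TAC M replicate 3 or 4. By sex 1 gene passed (0.0061%), with 6.12% at an unadjusted p under 0.05. It was 4933427D14Rik, whose log2 difference of strong minus weak was -6.60 in Con TAC F and -0.79 in ONOFF TAC F, against 0.80 in Con TAC M and -0.42 in ONOFF TAC M. The male difference minus the female one was 3.89 (SE 0.45, limma adjusted p = 0.00727), so the larger difference was that in females, and it was largest in Con TAC F. This gene was listed at 0 in both strong libraries of Con TAC F and stood between 59.6 and 108 in the other 6 strong libraries. Its symbol is not unique among the deposited genes. All values given under it here are those of a single entry, so a 0 describes that entry only. It no longer passed without Con TAC M replicate 1 (limma adjusted p = 0.0549) or Con TAC F replicate 5 (limma adjusted p = 0.0501), nor with a pseudocount of 10. The count by sex was 3 without Con TAC F replicate 2, 5 without ONOFF TAC M replicate 1 and 7 without Con TAC M replicate 5.

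The 20 sham libraries, which the rule did not use, gave a second look at the same relation. There the log2 value of each gene was fitted on the log2 value of Nppa, with group as a covariate, so a slope is a log2 change per log2 unit of Nppa. No gene passed in limma (0% called, smallest adjusted p 0.942), and 494 genes or 3.01% had an unadjusted p under 0.05. The slope had the same sign as the difference in TAC for 63.5% of all genes, for 75.4% of the 1555 genes with an unadjusted p under 0.05 in TAC, and for 14 of the 19 leading genes. Genes are not independent of each other, so these shares are descriptions. Among the 19, the slope was 0.64 for Gdf15 (SE 0.22) and -0.13 for Dglucy (SE 0.05), the 2 with an unadjusted p under 0.05 in sham. The sham slope was positive, opposite to the difference in TAC, for Cacna2d2 (0.47), Ccl9 (0.42), Ptges (0.31) and Magi2 (0.03), and negative for Telo2 (-0.05).

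In the fetal and hypertrophy list 4 of 20 genes had a positive sham slope at an unadjusted p under 0.05 and 0 a negative one, against 1.58% and 1.43% of all genes. Nppb had a slope of 0.39 (SE 0.15) and Ankrd1 one of 0.24 (SE 0.07), while Myh7 had 0.25 (SE 0.12) and Acta1 -0.25 (SE 0.16). Of the immediate early genes 17 of 18 had a positive slope, but 0 reached an unadjusted p under 0.05. Their median slope was 0.14, against -0.0048 over all genes, and Egr2 had 0.18 (SE 0.31). For collagen genes 7 of 22 slopes were positive, with a median of -0.033, against 20 of 22 differences above 0 in TAC. Myl7 was above 100 in 12 of the sham libraries, and its slope was 1.73 (SE 1.45). Without those 12 libraries, 9 of the 19 leading genes had the same sign as in TAC, and the slope of Gdf15 turned to -0.36. Few libraries then bear on a slope, and Con Sham F kept only replicate 4, which adds nothing to it. These signs are thus weak evidence beside those from all 20 sham libraries.

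**Figure D5:**
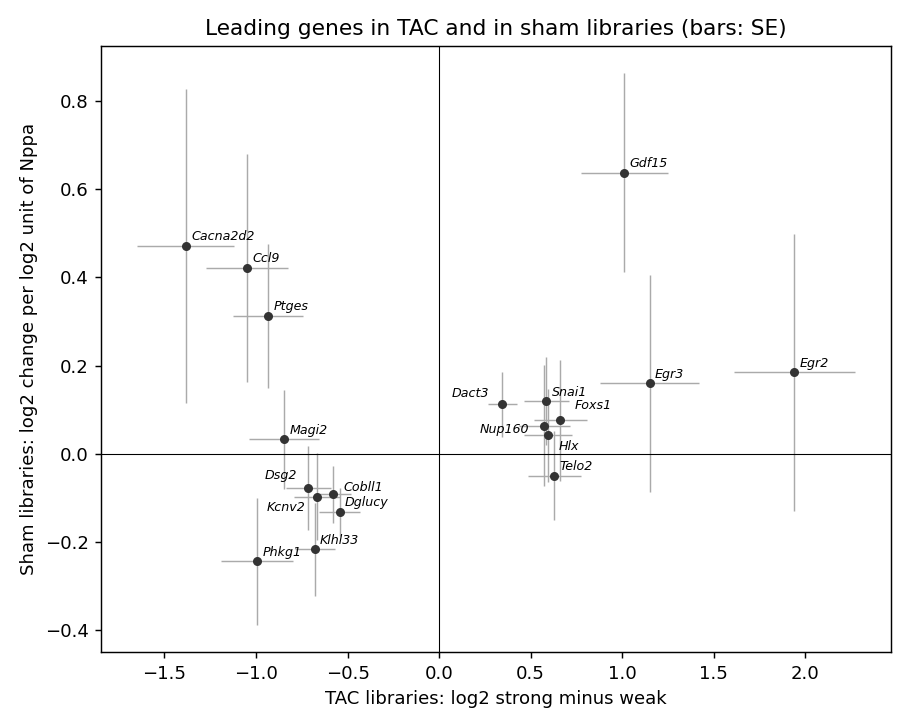
For the 19 leading genes, the log2 difference of strong minus weak TAC libraries (horizontal) against the log2 change per log2 unit of Nppa in the 20 sham libraries (vertical), with bars of 1 SE. Points in the upper right and lower left, 14 of 19, have the same sign in both.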

How the data were processed

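Left ventricular RNA was sequenced from stranded libraries, 5 in each of 8 groups. The authors deposited normalized count signal for 22676 genes in all 40 libraries, and each column was tied to its sample through the library name in the labels. Per the submitters' processing notes, the tools were FastQC 0.11.7, MultiQC 0.8, STAR 2.7.3a, Salmon, R 4.3.1 and DESeq2, with build GRCm39. Whole reads could not be recovered from the values, so depth, counting intervals and a count test could not be had, and precision rests on the spread between libraries. The reference at hand was of another build, so no coordinates or sequences are given.

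Values were taken as log2(value + 1), which understates the change of low genes. A gene was kept if 5 or more of the 40 libraries reached a value of 10; without Nppa, 16394 remained. limma 3.58.1 in R 4.3.3 was fitted with an intensity trend and robust variances, and two-sided p-values were adjusted by Benjamini-Hochberg over all genes. Library measures were compared by exact permutation within groups. The fits were tested on simulated data. Figures used matplotlib 3.10.9.

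The classes, the gene lists and the tests were chosen with earlier results of these data known. Since no gene was called, the rule for named genes took the 10 smallest p in each direction among genes that averaged 100 or more in the higher class and had the same sign in all 4 groups, leaving predicted genes aside. From each list it added the 3 members of smallest p, then called genes of the differences by genotype and sex, and a fixed set (Nppb, Acta1, Myh7, Myh6, Ankrd1, Gdf15, Postn, Cilp, Col1a1, Oga, Ogt, Xist, Myl7, Myl4, Sln and Bmp10; Bmp10 was below the filter). The rule took 147 genes. After the values were seen, list members with an unadjusted p of 0.05 or more were dropped from individual report, and 10 genes beyond the rule were added (Junb, Fos, Egr1, Fosb, Jun, Rcan1, Xirp2, Uchl1, Hadha and Ppara), and 2 genes that the rule took, 1 of them a leading gene, are not reported here, leaving 108. The genes reported are thus the more extreme members of their lists, and the counts over whole lists should be read beside them.

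The alternatives tried were no filter, a filter on means under 50, a pseudocount of 10, TMM rescaling, quantile normalization, library weights, replicate number as a block, other uses of Nppa, single genotypes or sexes, and leaving out each library, the 2 libraries low in Xist, or sham libraries with many zeros. Leaving out libraries with Myl7 above 100 was chosen after the data were seen. It removed both weak libraries of ONOFF TAC F and weak replicate 5 of ONOFF TAC M. Of Con Sham F it left only replicate 4.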

Additional observations from a re-analysis of the deposited data

Results flagged for a closer look

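In 46 of 432 combinations of a reported gene with 1 of the 4 TAC groups, a single library lay far from the other 4, meaning that its gap to the nearest of them was more than 0.71 of the range of all 5 (Dixon's criterion). By its construction chance gives about 1 in 20 for independent normal values. Over all 16394 tested genes the share was 8.9%, against 10.6% here. Over all 147 genes that the naming rule took there were 64 in 588. Ranges in brackets are those of the other 4 libraries of the group, in normalized counts.

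The atrial genes made up the largest set. In ONOFF TAC F replicate 1, a weak library, Myl7 was 7010 (3.12 to 841), Myl4 15300 (87.1 to 2829), Sln 3678 (8.76 to 788.5) and Shox2 165 (15.4 to 53.9). In ONOFF TAC M replicate 5, also weak, Myl7 was 525 (5.28 to 15.1), Myl4 2576 (86.8 to 168) and Sln 672 (16.9 to 59.0). In the middle library Con TAC F replicate 3, Myl7 was 3975 (2.15 to 10.0), Myl4 7662 (65.4 to 183), Sln 1937 (1.05 to 47.0) and Shox2 141.5 (16.4 to 41.6). In the weak library Con TAC M replicate 3, Myl7 was 27.3 (1.66 to 7.17) and Myl4 136 (59.7 to 73.9).

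Among weak libraries, ONOFF TAC M replicate 5 was low in Dact3 at 1309 (1736 to 1868), Col15a1 at 4766 (10600 to 11630) and Col6a3 at 1578 (2964 to 3443), and high in Lpl at 110600 (90300 to 93510) and Upk1b at 18.1 (0 to 3.48). ONOFF TAC F replicate 1 was high in Hlf at 858 (321 to 436) and Tef at 3935 (1710 to 2246). ONOFF TAC F replicate 2 was high in Grk3 at 779 (432 to 531) and Ppara at 569.6 (204 to 297). Con TAC M replicate 3 was high in Cenpf at 1038 (89.7 to 132), Pde4d at 432 (259 to 302.5) and Upk1b at 7.17 (0 in each of the others). Con TAC M replicate 5 was high in Nr1d2 at 2676 (1805 to 1910) and low in 4933427D14Rik at 35.9 (89 to 109). ONOFF TAC M replicate 1 was high in Cenpf at 428 (39.6 to 105).

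Among strong libraries, Con TAC M replicate 1 was high in Hlx at 851.6 (573.5 to 651), Des at 178800 (112700 to 126500), Egfl7 at 4105 (2584 to 2810), Ier2 at 1616 (902 to 1092) and Ifi27 at 1113 (726 to 808). This library also had the lowest mitochondrial share, 8.28%. Con TAC F replicate 2 was high in Ier2 at 2175 (573 to 990.5) and Egr1 at 6886 (691 to 2193) and low in Adra1b at 559 (1211 to 1433). Con TAC F replicate 4 was high in Nmrk2 at 2206 (680 to 1016) and Myh6 at 1967000 (931900 to 1232000) and low in Ackr3 at 3804 (6091 to 6883). ONOFF TAC M replicate 3 was high in Nppb at 49950 (34510 to 38690) and Nmrk2 at 3766 (1836 to 2351) and low in Hlf at 272 (381 to 413). ONOFF TAC F replicate 5 was low in Aldh6a1 at 5119 (6775 to 7074) and high in Tubb2a at 4397 (2590 to 3020). Of the other middle libraries, ONOFF TAC F replicate 3 was high in Suclg2 at 8601 (7501 to 7705) and ONOFF TAC M replicate 4 in Cdkn2b at 81.2 (40.9 to 46.3).

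The class difference of 4933427D14Rik was the only 1 that differed between the sexes by the limma test of that difference, with a male minus female value of 3.89 on the log2 scale (-6.60 in Con TAC F, -0.79 in ONOFF TAC F, 0.80 in Con TAC M and -0.42 in ONOFF TAC M).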

How the results depend on the processing

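No gene passed in the comparison of strong with weak libraries, nor with a pseudocount of 10, either other filter, TMM rescaling, quantile normalization or the replicate block (0 genes called; 1568 at an unadjusted p under 0.05). With library weights 4 passed (Egr2, Kcnv2, Snai1 and Klhl33), with the slope over all 20 TAC libraries 2 (Dsg2 and Tdp1), with the middle libraries as a class of their own 1 (Klhl33) and in Con TAC alone 2 (Gm14288 and Zfp1009). Leaving out single libraries gave 0 to 1. The 743 higher and 812 lower genes at an unadjusted p under 0.05 became 1261 and 1340 with the slope, 434 and 410 for the highest against the lowest library, 1176 and 1278 in Con TAC alone, 310 and 437 in ONOFF TAC alone, 280 and 270 in male TAC alone, and 1120 and 1254 without libraries with Myl7 above 100; fewer libraries entered the last 5. Leaving out single libraries gave 509 to 1045 higher and 561 to 1196 lower. In this comparison the 19 leading genes had the same sign under every alternative listed. They were chosen from these libraries by p and by the same sign in all 4 groups. Their signs could thus hardly turn, and nothing is read from this.

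By genotype the count of 0 was 0 to 40 and by sex the count of 1 was 0 to 7 when single libraries were left out. By sex it was 0 with a pseudocount of 10 or the replicate block (limma adjusted p = 0.553 and 0.290 for 4933427D14Rik) and 3 without the libraries low in Xist. Only Con TAC F replicate 2 of those is in the comparison. Correlations between same-numbered libraries were -0.165 to 0.16. What the replicate numbers stand for is not given, and whether they mark anything shared was not tested. Under the block 3 fatty acid genes and 1 clock gene were lower, in place of 6 and 4, and 10 collagen genes higher, in place of 3. In sham 0 genes passed under all alternatives.

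Some differences near 0 turned. In ONOFF TAC alone Ifi27 was -0.0049 and Myh6 -0.0014. In male TAC alone Myh6 was -0.012, Xist 0.23, Ppara 0.068 and 4933427D14Rik 0.19. Xist was -0.87 to 0.086 when single libraries were left out, 0.086 without Con TAC F replicate 2, and Myl4 0.039 in Con TAC alone. Without libraries with Myl7 above 100 the differences of Myl4 and Sln were 0.15 and 0.27, and the sham slopes were -0.096 for Snai1, -0.0062 for Foxs1, -0.031 for Hlx, -0.36 for Gdf15, 0.14 for Dsg2, 0.17 for Kcnv2 and -0.48 for Ccl9. Sham slopes were also -0.025 for Foxs1 with library weights and -0.0025 for Nup160 with the replicate block. Without ONOFF Sham F replicate 1 they were -0.0064 for Hlx, -0.029 for Nup160 and -0.0062 for Magi2. Hlx was at -0.015 without Con Sham M replicate 3 and Magi2 at -0.036 without ONOFF Sham M replicate 2, the lowest of -0.036 to 0.0998 for single libraries. With 2 highest against 2 lowest sham libraries Telo2 was 0.072 and Magi2 -0.037. The cause was not tested. Depth is unknown, so what it limits could not be stated.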
